A study of Mus musculus with 9 samples.

Results

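The matrix proteases and their inhibitors were followed at the RNA level in cultured mouse spermatogonial stem cells (SSCs), the germ cells from which sperm production is renewed. Members were the genes whose symbol is Mmp, Adamts or Adamtsl followed by a number, or Timp1 to Timp4, a rule that uses the symbol and no measured value. The rule found 51 of the 53801 genes in the count table, made up of 23 matrix metalloproteinases (MMPs), 4 tissue inhibitors of metalloproteinases (TIMPs), 19 ADAMTS proteases and 5 ADAMTS-like proteins. The cells came from Prmt5 flox/flox; Rosa26-CreERT2 mice, in which a tamoxifen-activated Cre expressed from the Rosa26 locus removes the floxed part of Prmt5, and cells of all 3 groups had received 1 µM 4-hydroxytamoxifen (4OHT) in vitro. PRMT5 is an arginine methyltransferase. The group 4OHT was the knockout alone. The group MU was read from its label as the knockout with a lentiviral catalytically dead mutant, PRMT5 (E444Q), and the group OE as the knockout with lentiviral wild-type PRMT5. Each group had 3 libraries of bulk poly(A) RNA, and cells that were not given 4OHT were not analysed here. The comparison of MU with OE set the catalytically dead construct beside the wild-type one, and 4OHT was the shared reference of both constructs.

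MMPs and ADAMTS proteases are zinc-dependent enzymes that are made as inactive precursors and cut collagens, proteoglycans and other proteins outside the cell once a propeptide has been removed. TIMPs bind the active site of MMPs and block it, and ADAMTS-like proteins share the accessory domains of ADAMTS proteases without the catalytic domain. In the testis MMPs and ADAMTS proteases act on the basement membrane around the seminiferous tubules, and in culture fibroblasts are a well known source of many of them.

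The libraries held 78751996 to 365719548 counts, with the 3 MU libraries all deeper than every 4OHT and every OE library. Prmt5 itself was at 28.2 to 31.9 CPM (counts scaled to the size of the library) in the 4OHT libraries, 145 to 147 CPM in MU and 1071 to 1085 CPM in OE, so the constructs also differed in Prmt5 RNA, which the gene count does not divide into floxed and introduced transcripts. The 14 germ cell markers were all tested and their summed level was 2555 to 2634 CPM in 4OHT, 3459 to 3547 CPM in MU and 3734 to 3775 CPM in OE. With each construct 9 of them rose, Ddx4, Dazl, Utf1, Sall4 and Lin28a among them, and 4 fell, including Gfra1 and Ret. Genes of the undifferentiated cells went both ways, since Zbtb16, Gfra1 and Ret fell, Utf1 rose and Id4 did not pass. The 15 fibroblast markers, among them collagens of the kind that feeder cells make, summed to 5409 to 6374 CPM in 4OHT, 3301 to 3376 CPM in MU and 2596 to 2652 CPM in OE, and none was at 0. The 15 macrophage markers summed to 182 to 198 CPM, 1157 to 1188 CPM and 2236 to 2359 CPM in the same order, with 10 higher and 4 lower in MU and 10 higher and 3 lower in OE against 4OHT. Among them Lyz2 and Csf1r rose with both constructs, whereas C1qa, C1qb and C1qc fell with both and Fcgr1 stayed under 1 CPM in all group means. Lyz2 made up most of each sum, with means of 151 CPM in 4OHT, 944 CPM in MU and 1878 CPM in OE. Over all genes tested 29.5% were called higher and 26.5% lower in MU against 4OHT, and 29.9% and 27.9% in OE. Sertoli and Leydig markers were low, with sums of at most 26.9 and 7.12 CPM in any library and with Fshr and Hsd3b1 at 0 in all 9. Endothelial markers summed to at most 17.7 CPM in any library. The 4 smooth muscle and peritubular markers summed to 102 to 109.7 CPM in 4OHT, 40.1 to 43.5 CPM in MU and 35.6 to 37.6 CPM in OE. The cultures of SSCs in the study were grown on mouse embryonic fibroblast feeder cells for its growth assays, and whether feeder RNA is in these libraries is not stated.

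A run of 10 MMP genes lies side by side on mouse chromosome 9, between positions 7272514 and 7699585 of GRCm38, and this cluster held Mmp1a, Mmp10 and Mmp3, the 3 members with the lowest log2 fold changes in OE. For 7 of them the promoter is printed below from RefSeq on GRCm38.p6, from 100 bases before to 20 bases after an annotated start, 5′ to 3′ on the strand of the gene. The first 6 fell with both constructs and Mmp8 did not, which is why these 7 are shown. Capitals mark the 7 letters TGANTCA, with any base at N, read on both strands. This pattern is wider than TGAGTCA and TGACTCA, the binding letters of AP-1. AP-1 is the Fos and Jun dimer that is a textbook regulator of collagenase and stromelysin genes. The windows are printed in chromosomal order.
Mmp13, chr9:7272414-7272533, plus strand: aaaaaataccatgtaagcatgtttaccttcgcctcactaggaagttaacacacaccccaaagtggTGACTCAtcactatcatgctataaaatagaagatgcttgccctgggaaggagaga
Mmp12, chr9:7347274-7347393, plus strand: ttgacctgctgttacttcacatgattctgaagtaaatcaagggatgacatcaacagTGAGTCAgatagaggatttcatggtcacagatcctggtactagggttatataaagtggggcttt
Mmp1b, chr9:7388007-7388126, minus strand: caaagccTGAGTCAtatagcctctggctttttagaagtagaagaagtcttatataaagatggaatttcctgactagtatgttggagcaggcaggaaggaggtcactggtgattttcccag
Mmp3, chr9:7445722-7445841, plus strand: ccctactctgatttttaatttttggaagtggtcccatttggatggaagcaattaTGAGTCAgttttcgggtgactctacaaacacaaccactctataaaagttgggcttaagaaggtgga
Mmp1a, chr9:7464041-7464160, plus strand: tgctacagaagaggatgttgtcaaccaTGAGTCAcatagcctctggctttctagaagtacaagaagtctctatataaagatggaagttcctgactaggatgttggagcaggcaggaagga
Mmp10, chr9:7502242-7502361, plus strand: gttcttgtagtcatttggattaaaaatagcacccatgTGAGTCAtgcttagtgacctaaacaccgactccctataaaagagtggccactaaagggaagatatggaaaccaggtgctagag
Mmp8, chr9:7558329-7558448, plus strand: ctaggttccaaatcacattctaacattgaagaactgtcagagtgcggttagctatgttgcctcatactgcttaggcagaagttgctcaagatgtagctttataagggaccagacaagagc
The letters began 35 bases before the start in Mmp13, 44 in Mmp12, 93 in Mmp1b, 46 in Mmp3, 73 in Mmp1a and 63 in Mmp10, and the printed Mmp8 window did not hold them. Over the full windows of 300 bases, 250 before and 50 after each start, 36 of the 51 members had a RefSeq window. The letters were present in 8 of the 12 windows of the cluster, which belonged to 8 of its 10 genes, and in 0 of the 27 windows of the other members. Those 27 windows belonged to 26 genes. Members without a window were not searched, Mmp2, Mmp9, Mmp19, Adamts5, Adamts6 and Adamts7 among them. Among all 32851 mouse promoter windows 2565 held the letters, with any base at N, or 7.81%. The cluster genes without the letters were Mmp8 and Mmp27. Mmp12 had another window, chr9:7344147-7344446, without the letters, and only the one with them is printed. The printed genes were chosen by their change, so they are no test of the letters. The printed Mmp1a and Mmp1b windows are largely alike, so their matches are not independent of each other. Relatedness among the other windows of the cluster was not tested. Mmp20 and Mmp7 held the letters in a window but had too few counts for a test of change. Timp2, Mmp14 and Mmp25 fell with both constructs, and their windows did not hold the letters. A match is a description of the sequence and does not show that a factor bound there.

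Levels differed widely between members. Of the 51 members, 40 reached a mean of 1 CPM in 4OHT, 35 in MU and 35 in OE. Too few counts for a test were found for 3 members, namely Adamtsl2, Mmp7, known as matrilysin, and Mmp20, the protease of tooth enamel. Mmp20 had no count in 8 of the 9 libraries and 8 counts in the other. Levels of different genes were compared per kb of merged exon. In 4OHT the highest mean level was that of Timp2, an inhibitor that also helps to activate MMP2, at 352 ± 18.5 CPM per kb (SD, n = 3). Mmp3, or stromelysin-1, a protease of broad specificity, followed at 271 ± 12.2 CPM per kb, then Timp1, a soluble inhibitor, at 148 ± 10.5, Mmp2, the gelatinase A that cuts denatured and basement membrane collagen, at 101 ± 12.2, and Mmp14, the membrane-anchored activator of MMP2, at 55.9 ± 7.6 CPM per kb. These first 5 did not overlap with their neighbours in the order, whereas Timp3 and Adamts1, the seventh and eighth, did.

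The order of levels per kb was not the same with the constructs. Mmp3 stood after Timp2 in 4OHT and in the fourth place in both other groups, at 33.6 ± 1.09 CPM per kb in MU and 25.3 ± 1.15 in OE (SD, n = 3). Timp2 stayed in first place at 81.0 ± 0.772 CPM per kb in MU and 61.0 ± 0.284 in OE, followed by Timp1 at 57.2 ± 2.28 and 41.4 ± 0.921. Mmp14 and Timp3 overlapped in MU, and Mmp19 and Timp3 overlapped in OE. Among the 34 members with at least 1 CPM in every group, the median coefficient of variation between libraries was 9.98% in 4OHT, 4.97% in MU and 5.39% in OE. The least even member in 4OHT was Mmp8, with 38.8%.

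**Figure D1:**
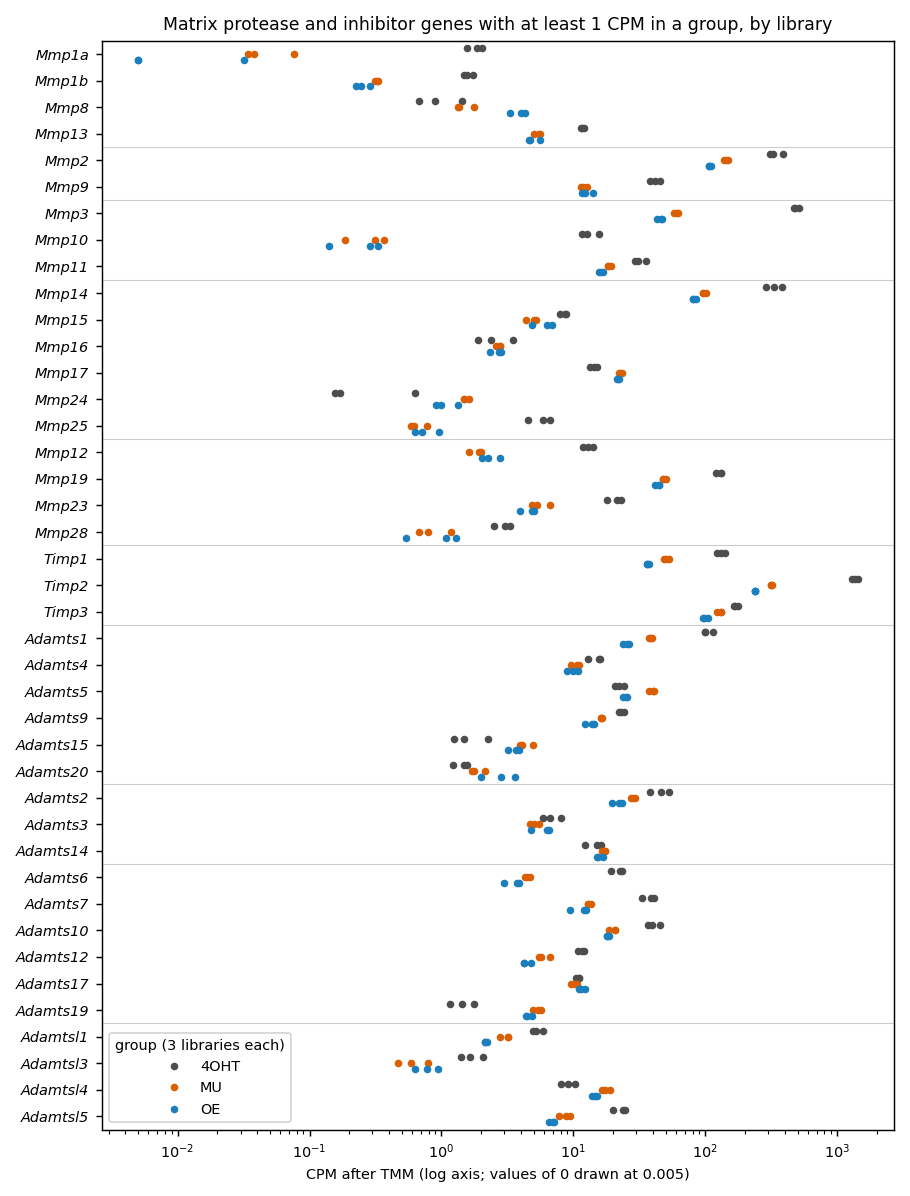
Level of each member with a mean of at least 1 CPM in some group, in each of the 9 libraries, on a log axis of CPM. Points are single libraries of 4OHT, MU and OE, lines divide the member classes, and for most members the 4OHT points lie to the right of the others, as for Timp2 at 1302 to 1446 CPM against 313 to 319 CPM in MU and 236 to 239 CPM in OE.

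Most members were lower with either construct than in the knockout alone. Of the 48 members tested, 38 passed the threshold in MU against 4OHT, 7 higher and 31 lower, and 38 passed in OE against 4OHT, 8 higher and 30 lower (edgeR quasi-likelihood test, Benjamini-Hochberg adjusted p under 0.05 over 22452 genes). Over all genes tested the shares called were 56.0% and 57.8%, the shares called higher were 29.5% and 29.9% and the shares called lower 26.5% and 27.9%. Of the members 64.6% and 62.5% were called lower. With a change of at least 2-fold as well, 22 members were lower and 4 higher in MU, and 25 lower and 5 higher in OE, where 10.2% and 12.5% of all genes were lower at that size and 9.32% and 9.42% higher. The libraries of the 2 groups did not overlap for 41 members in MU and 39 in OE, beside 63.9% and 61.6% of all genes, and 32 and 30 of these members were lower, beside 30.1% of all genes in each. The median log2 fold change of the members was -0.89 in MU and -1.14 in OE, beside 0.0435 and 0.0179 over all genes tested. Both comparisons use the same 3 control libraries, so they are not independent of each other. An empty vector is not stated for 4OHT. The PRMT5 construct and its lentiviral delivery therefore cannot be told apart in either comparison. Fibroblast markers moved in the same direction, with 15 of 15 lower in MU and 14 of 15 lower in OE and median log2 fold changes of -0.96 and -1.31, and 3 of the 4 smooth muscle markers were lower with each construct, with medians of -1.06 and -1.16. The part of either list in the result was not tested. In bulk RNA, fewer cells of a type and less RNA per cell cannot be told apart.

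**Figure D2:**
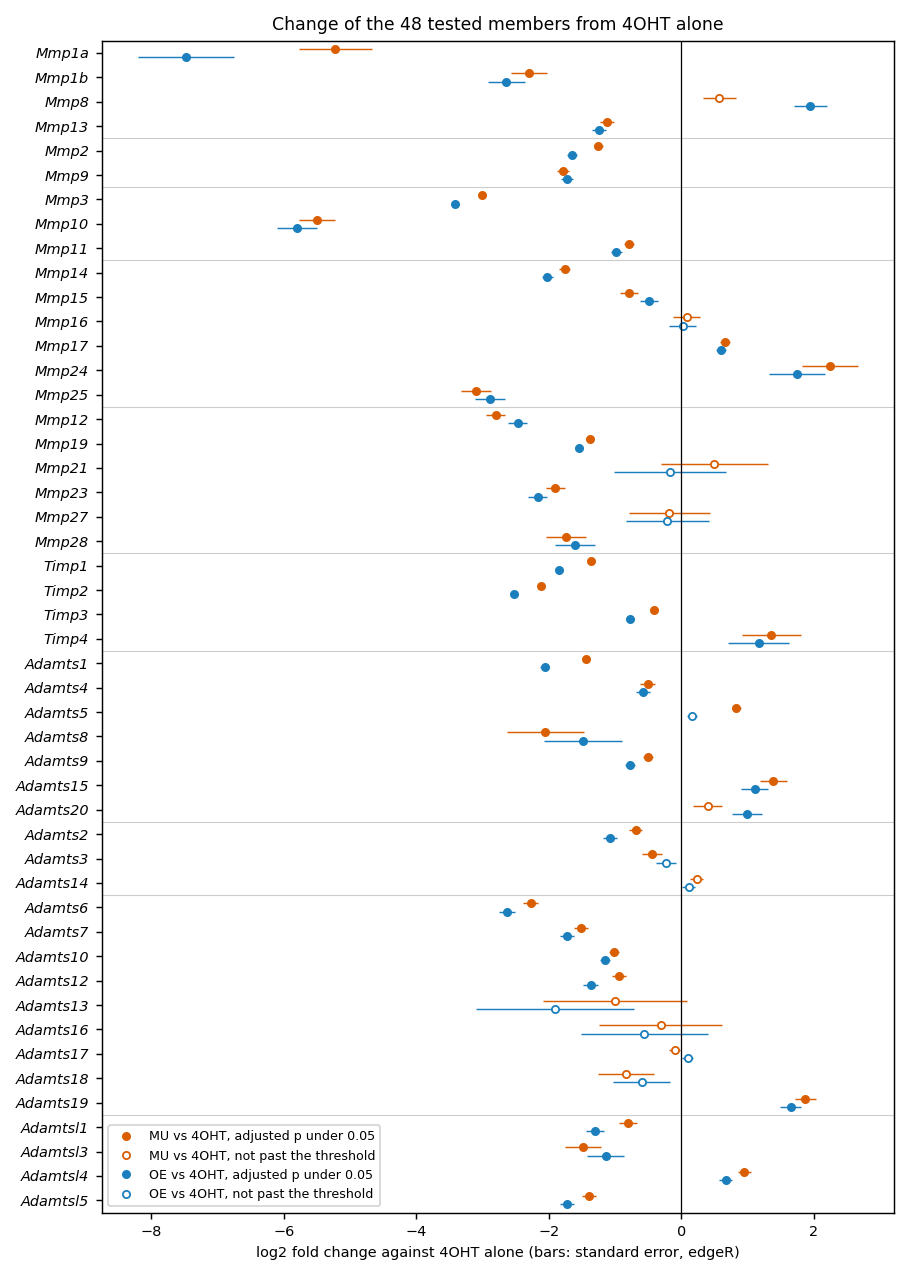
Log2 fold change of the 48 tested members in MU and in OE against 4OHT alone, grouped by class, with the standard error as a bar. Filled points passed an adjusted p of 0.05, and most lie to the left of 0, with Mmp10 at -5.50 and -5.80 and Timp2 at -2.12 and -2.53 while Mmp24 lies to the right at 2.25 and 1.75. The OE point of Mmp1a rests on 1 read pair and its place depends on the prior count of the fit.

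The steepest declines with each construct were those of the stromelysin Mmp10 and the collagenase Mmp1a. Other members of these classes fell less or, as Mmp8 in OE, rose. Mmp10, or stromelysin-2 (ENSMUSG00000047562), was at 12.7, 11.6 and 15.7 CPM in the 4OHT libraries, 0.187, 0.367 and 0.311 CPM in MU, and 0.332, 0.289 and 0.14 CPM in OE. All 6 construct libraries were below 1 CPM and far from the lowest 4OHT library. The fall was 45.2-fold in MU, or -5.50 on the log2 scale (SE 0.274, edgeR adjusted p = 1.03e-09), and 55.7-fold in OE, or -5.80 (SE 0.298, edgeR adjusted p = 1.1e-09).

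Mmp3 (ENSMUSG00000043613, chr9:7445822-7455975, plus strand), whose promoter letters are printed above, was measured at 514, 472 and 480 CPM in 4OHT, 58.4, 62.4 and 60.6 CPM in MU, and 43.2, 46.5 and 47.1 CPM in OE. The 3 groups did not overlap, and libraries within a group stayed close. Mmp3 fell 8.08-fold in MU (log2 fold change -3.01, SE 0.0557, edgeR adjusted p = 1.67e-13) and 10.7-fold in OE (-3.42, SE 0.057, edgeR adjusted p = 3.09e-14). Mmp11, or stromelysin-3, which unlike the others leaves its cell already active, changed less, by -0.79 in MU and -0.98 in OE on the log2 scale, and both passed the test.

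The rodent genes Mmp1a and Mmp1b correspond to the human interstitial collagenase. Mmp1a was at 1.86, 1.55 and 2.02 CPM in 4OHT, at 0.0759, 0.0343 and 0.0379 CPM in MU and at 0, 0.0321 and 0 CPM in OE. Every construct library was under 0.1 CPM. It was 37.2-fold lower in MU (log2 fold change -5.22, SE 0.554, edgeR adjusted p = 2.04e-06). In OE about 1 read pair remained against 113 in 4OHT, a ratio of 150.4 after scaling to depth with a 95% interval of 26.4 to 5991 that covers counting error only. Mmp1b was at 1.56, 1.48 and 1.72 CPM in 4OHT and at 0.224 to 0.329 CPM in the 6 construct libraries, with log2 fold changes of -2.30 in MU (SE 0.271) and -2.64 in OE (SE 0.284), both past the test. Of the 75-base stretches in its transcripts, 12.8% also occur in another gene, so its reads may be shared.

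Mmp8, the collagenase stored in neutrophils, went the other way. It was at 1.44, 0.896 and 0.68 CPM in 4OHT, 1.34, 1.75 and 1.37 CPM in MU, and 4.32, 4.0 and 3.28 CPM in OE. The OE libraries were all above the others, while MU overlapped with the highest 4OHT library. The rise was 3.86-fold in OE (log2 fold change 1.95, SE 0.254, edgeR adjusted p = 1.45e-05), whereas the difference of 0.57 in MU (SE 0.249) had an edgeR adjusted p of 0.0668 and without 4OHT replicate 1 was 0.90 with an adjusted p of 0.00469. The 7 neutrophil markers summed to between 1.56 and 4.1 CPM in all libraries, with Ly6g at 0 in MU and OE and S100a9 and Ltf at 0 in 4OHT and OE. Mpo of the same list rose with both constructs, from a mean of 0.0773 CPM in 4OHT to 0.561 CPM in MU and 0.528 CPM in OE, and Camp fell in OE, from 0.386 to 0.034 CPM. Both changes rest on few read pairs. Mpo was under the floor of 3 read pairs in every 4OHT library, and Camp was at 0 in OE replicates 1 and 2. Mmp13, or collagenase 3, fell by 1.12 in MU and by 1.24 in OE on the log2 scale.

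In chromosomal order the cluster ran Mmp13, Mmp12, Mmp1b, Mmp3, Mmp1a, Mmp10, Mmp8, Mmp27, Mmp20 and Mmp7 over 427 kb. The first 6 genes in that order fell with both constructs, and the seventh, Mmp8, rose with OE. Mmp27, next to Mmp8 with a gap of 2910 bases, had log2 fold changes of -0.18 (SE 0.611) in MU and -0.21 (SE 0.628) in OE at about 0.2 CPM, which did not pass. Mmp12, the macrophage elastase, was at 14.2, 12.8 and 11.8 CPM in 4OHT, 1.62, 2.0 and 1.91 CPM in MU, and 2.76, 2.02 and 2.25 CPM in OE. It was lower in all 6 construct libraries, by -2.80 (SE 0.144, edgeR adjusted p = 1.35e-09) in MU and -2.47 (SE 0.145, edgeR adjusted p = 4.34e-09) in OE on the log2 scale. The summed macrophage markers, a sum made up mostly of Lyz2, were higher in all 6. The exons of Mmp12 and Mmp1b overlap on opposite strands, over 2.17% of the Mmp12 exons and 10.8% of those of Mmp1b, and whether the counting used strand is not stated.

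**Figure D3:**
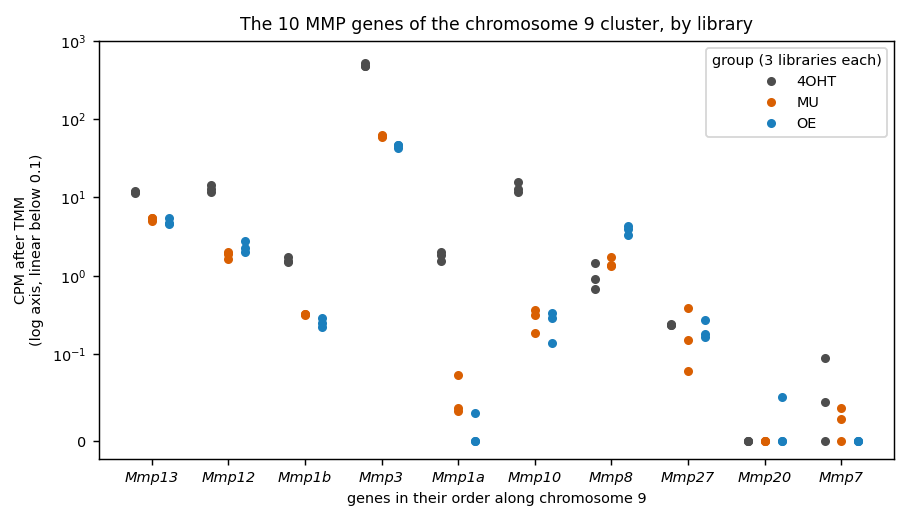
CPM of the 10 MMP genes of the chromosome 9 cluster in each library, in chromosomal order, on an axis that is logarithmic above 0.1 CPM and linear below. Mmp13 to Mmp10 show lower MU and OE points than 4OHT points, Mmp8 shows OE at 3.28 to 4.32 CPM above 4OHT at 0.68 to 1.44 CPM, and Mmp20 and Mmp7 lie at or near 0.

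Outside the cluster, both gelatinases fell. Mmp2 (ENSMUSG00000031740, chr8:92827291-92853420, plus strand) was at 309, 327 and 388 CPM in 4OHT, 148, 139.7 and 143 CPM in MU, and 107, 107 and 111 CPM in OE, with no overlap between groups. Its log2 fold change was -1.25 in MU (SE 0.0706, edgeR adjusted p = 3.66e-09) and -1.65 in OE (SE 0.0716, edgeR adjusted p = 2.04e-10). Mmp9, gelatinase B, fell from 37.8 to 45.2 CPM in 4OHT to 11.5 to 12.7 CPM in MU and 11.6 to 14 CPM in OE, by 1.79 and by 1.72 on the log2 scale. The log2 difference of Mmp9 between MU and OE was -0.0768 (SE 0.0873) and did not pass (edgeR adjusted p = 0.807).

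The 6 membrane-type MMPs, which are tethered to the cell surface, were divided. With each construct 3 were lower, 2 were higher and 1, Mmp16, did not pass. Mmp14 was at 289, 330.4 and 379.8 CPM in 4OHT and at 80.4 to 102 CPM in the construct libraries, a fall by 1.76 in MU and by 2.02 in OE on the log2 scale. Mmp25, held in the membrane by a lipid anchor, was at 4.49, 5.88 and 6.66 CPM in 4OHT, 0.592, 0.618 and 0.774 CPM in MU and 0.628, 0.962 and 0.708 CPM in OE. All construct libraries were under 1 CPM, and the log2 fold changes were -3.10 (SE 0.22, edgeR adjusted p = 3.44e-08) and -2.89 (SE 0.223, edgeR adjusted p = 7.17e-08).

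The membrane-type genes that rose were Mmp24, best known from the nervous system, and Mmp17, which also has a lipid anchor. Mmp24 was at 0.171, 0.155 and 0.625 CPM in 4OHT, 1.49, 1.62 and 1.47 CPM in MU, and 1.34, 0.908 and 0.995 CPM in OE. One 4OHT library stood above the other 2 but still below every construct library. Mmp24 rose by 2.25 in MU (SE 0.423, edgeR adjusted p = 0.000412) and 1.75 in OE (SE 0.426, edgeR adjusted p = 0.00291) on the log2 scale, and 13.6% of its exon bases overlap a gene on the opposite strand. Mmp17 rose from 13.3 to 15.2 CPM in 4OHT to 22 to 23.3 CPM in MU and 21.3 to 22 CPM in OE, by 0.66 and 0.60. Of the remaining MMPs, Mmp19, Mmp23 and Mmp28 fell with both constructs, for Mmp19 by 1.38 in MU and by 1.55 in OE, and Mmp21 was under 1 CPM and did not pass.

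Of the inhibitors, Timp1, Timp2 and Timp3 fell with both constructs and Timp4 was higher from a very low level. Timp2 (ENSMUSG00000017466, chr11:118301069-118355740, minus strand) was at 1302, 1363 and 1446 CPM in 4OHT, 313, 314 and 319 CPM in MU, and 236, 239 and 237 CPM in OE. The groups were far apart and libraries within a construct nearly equal. The fall was 4.34-fold in MU (log2 fold change -2.12, SE 0.0472, edgeR adjusted p = 7.39e-13) and 5.77-fold in OE (-2.53, SE 0.048, edgeR adjusted p = 1.07e-13).

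Timp1 (ENSMUSG00000001131, chrX:20870166-20874735, plus strand) was at 141, 132 and 122 CPM in 4OHT, 52.9, 50.6 and 48.8 CPM in MU, and 36.2, 36.4 and 37.7 CPM in OE. It fell 2.59-fold in MU and 3.57-fold in OE, with log2 fold changes of -1.37 (SE 0.0584) and -1.84 (SE 0.0598). Timp3, the inhibitor that binds to the matrix and also blocks ADAMTS proteases, fell least of these 3. Its libraries read 178, 165 and 168 CPM in 4OHT, 130.4, 123 and 132 CPM in MU, and 104, 95.8 and 98.2 CPM in OE, again without overlap. Its log2 fold change was -0.41 in MU (SE 0.0517, edgeR adjusted p = 1.13e-05) and -0.78 in OE (SE 0.0522, edgeR adjusted p = 1.59e-08), and Syn3 overlaps 21.3% of its exon bases on the opposite strand. Timp4 was at 0.132, 0.287 and 0.29 CPM in 4OHT, 0.364, 0.629 and 0.837 CPM in MU and 0.652, 0.631 and 0.332 CPM in OE. It was above all 4OHT libraries in each of the other 6, by 1.36 in MU (SE 0.45, edgeR adjusted p = 0.0193) and 1.17 in OE (SE 0.458, edgeR adjusted p = 0.0427) on the log2 scale, and these calls were lost in 4 and 10 of 16 alternative settings. For MU the call was lost without 4OHT replicate 1 (1.07), MU replicate 2 (1.33) or MU replicate 3 (1.05). For OE it was lost without 4OHT replicate 1 or 2, without MU replicate 2 or 3 and without OE replicate 1 or 2, at values from 0.87 to 1.33.

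Of the 19 ADAMTS proteases, 10 fell and 3 rose in MU, and 9 fell and 3 rose in OE. Of the 21 MMPs tested 15 fell with each construct, and the difference between the families was not tested. Among the hyalectanases, which cut versican and aggrecan, Adamts1 (ENSMUSG00000022893, chr16:85793827-85803113, minus strand) was at 100.3, 99.5 and 115 CPM in 4OHT, 39.4, 37.7 and 38.9 CPM in MU, and 26.3, 23.8 and 25.5 CPM in OE. The 3 groups were separate. Adamts1 fell 2.71-fold in MU (log2 fold change -1.44, SE 0.0646, edgeR adjusted p = 3.57e-10) and 4.17-fold in OE (-2.06, SE 0.0666, edgeR adjusted p = 1.31e-11).

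Its neighbour on chromosome 16, Adamts5, an aggrecanase whose gene (ENSMUSG00000022894, chr16:85856173-85901828, minus strand) lies 53059 bases away, moved differently. Adamts5 was at 22.2, 20.6 and 24 CPM in 4OHT, 40.9, 37.4 and 40.2 CPM in MU, and 25.7, 23.8 and 25 CPM in OE. Only MU stood apart, and OE overlapped with 4OHT. The rise in MU was 1.77-fold (log2 fold change 0.83, SE 0.0695, edgeR adjusted p = 1.94e-07), and the difference of 0.16 in OE (SE 0.07) had an edgeR adjusted p of 0.0727. It passed at 0.20 without 4OHT replicate 3 and at 0.20 without OE replicate 2.

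Adamts15 and Adamts20 are hyalectanases at low levels. Adamts15 was at 1.48, 1.24 and 2.24 CPM in 4OHT, 4.11, 4.96 and 3.92 CPM in MU, and 3.21, 3.88 and 3.66 CPM in OE, and rose by 1.39 (SE 0.203, edgeR adjusted p = 4.57e-05) and 1.11 (SE 0.205, edgeR adjusted p = 0.000327) on the log2 scale. All 6 construct libraries were above the highest 4OHT library. Adamts20 was at 1.23, 1.47 and 1.55 CPM in 4OHT, 2.12, 1.78 and 1.7 CPM in MU and 2.83, 2.0 and 3.58 CPM in OE. It rose by 0.99 in OE (SE 0.222, edgeR adjusted p = 0.00159), and in MU its log2 fold change of 0.40 (SE 0.219) did not pass (edgeR adjusted p = 0.144) although the libraries did not overlap. Adamts4, Adamts8 and Adamts9 fell with both constructs, and the call for Adamts8, at under 1 CPM, was lost for OE in 10 of the 15 alternative settings that tested it, among them leaving out any library other than 4OHT replicate 3 (adjusted p 0.0177 to 0.161 over the settings).

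The procollagen N-proteinases remove the amino-terminal propeptide of fibrillar collagens. Adamts2 fell with both constructs, by 0.69 in MU and by 1.07 in OE on the log2 scale, and Adamts3 fell in MU (-0.44), a call lost without 4OHT replicate 3, MU replicate 1 or MU replicate 2 (adjusted p 0.0059 to 0.112 over the settings). Its value in OE (-0.23) and its difference between the constructs (-0.21) did not pass. Adamts14 did not pass in either. Of the 9 other ADAMTS proteases, Adamts6, Adamts7, Adamts10 and Adamts12 fell with both constructs, Adamts6 the most, at -2.27 in MU and -2.63 in OE. Adamts6 and Adamts10 are linked to fibrillin microfibrils, and Adamts7 and Adamts12 cut the cartilage protein COMP.

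Adamts19, an orphan protease without an established substrate, was the member of this class that rose. It was at 1.78, 1.17 and 1.43 CPM in 4OHT, 5.65, 5.4 and 4.98 CPM in MU, and 4.37, 4.46 and 4.84 CPM in OE. The construct libraries were all clear of the 4OHT libraries, by 3.67-fold in MU (log2 fold change 1.87, SE 0.159, edgeR adjusted p = 2.08e-07) and 3.13-fold in OE (1.65, SE 0.16, edgeR adjusted p = 7.49e-07). Adamts13, which cuts von Willebrand factor, Adamts16, Adamts17 and Adamts18 did not pass with either construct.

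Adamtsl1, Adamtsl3 and Adamtsl5 fell with both constructs, with log2 fold changes from -0.80 to -1.48 in MU and from -1.14 to -1.72 in OE. Adamtsl4, which binds fibrillin and is needed to hold the eye lens in place, rose instead. It was at 8.0, 9.07 and 10.2 CPM in 4OHT, 19, 17.3 and 16.5 CPM in MU and 13.9, 14.7 and 15 CPM in OE, a change of 0.95 (SE 0.0967, edgeR adjusted p = 1.29e-06) and 0.67 (SE 0.0974, edgeR adjusted p = 3.76e-05) on the log2 scale with no overlap with 4OHT.

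The constructs were then compared with each other. Prmt5 RNA was itself lower in MU than in OE, by -2.88 on the log2 scale. Loss of catalytic activity and level of Prmt5 RNA therefore cannot be told apart in this comparison. Of the 48 members tested, 8 passed in MU against OE, 7 higher in MU and 1 lower, or 16.7% of the members beside 3.17% of all genes tested (edgeR quasi-likelihood test, Benjamini-Hochberg adjusted p under 0.05). Called higher were 14.6% of the members beside 2.12% of all genes, and 25 members had all 3 MU libraries above all 3 OE libraries, or 52.1% beside 13.0%. In either direction 29 members did not overlap, beside 25.9% of all genes, and 4 of them were lower in MU, beside 12.8%. The median log2 difference of the members was 0.24, beside 0.00801 over all genes tested. Fibroblast markers moved the same way, with 11 of 15 higher and 1 lower in MU and a median of 0.34, and their part in the result was not tested. A fit on only the 6 libraries compared called 14 members, 13 of them higher in MU. The share of all genes called in that fit is not given here, so the 14 cannot be set beside it.

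The 7 members higher in MU were Adamts1, Adamts5, Mmp2, Mmp3, Timp1, Timp2 and Timp3, whose libraries are given above and did not overlap between MU and OE. The differences were small, from 0.37 to 0.67 on the log2 scale. Adamts5 differed most, at 0.67 (SE 0.069, edgeR adjusted p = 8.06e-05), followed by Adamts1 at 0.62 (SE 0.0646, edgeR adjusted p = 9.28e-05) and Timp1 at 0.46 (SE 0.0582, edgeR adjusted p = 0.000401). Timp2, Mmp3 and Mmp2 each differed by 0.41, with edgeR adjusted p of 0.000147, 0.000473 and 0.00449, and Timp3 by 0.37 (edgeR adjusted p = 0.000863).

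For 6 of these 7 the level in MU lay between 4OHT and OE, since all but Adamts5 were lower in MU than in 4OHT. Adamts5 was instead highest in MU. Mmp8 was the member lower in MU than in OE, by -1.38 on the log2 scale (SE 0.241, edgeR adjusted p = 0.00498), or 2.59-fold, and the only one of the 8 at 2-fold or more, where 0.45% of all genes were called, 0.298% lower and 0.151% higher in MU. Beside it, 9 of the 15 macrophage markers were lower in MU, with a median of -0.59 over the list, and the 3 tested of 7 neutrophil markers did not pass. Over all genes tested 1.06% were called lower in MU. Mmp1a had a log2 difference of 2.27 (SE 0.853) on a few read pairs and an edgeR adjusted p of 0.252. Mmp10, at -5.50 and -5.80 against 4OHT, differed by 0.30 (SE 0.312) between the constructs, which did not pass (edgeR adjusted p = 0.785).

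**Figure D4:**
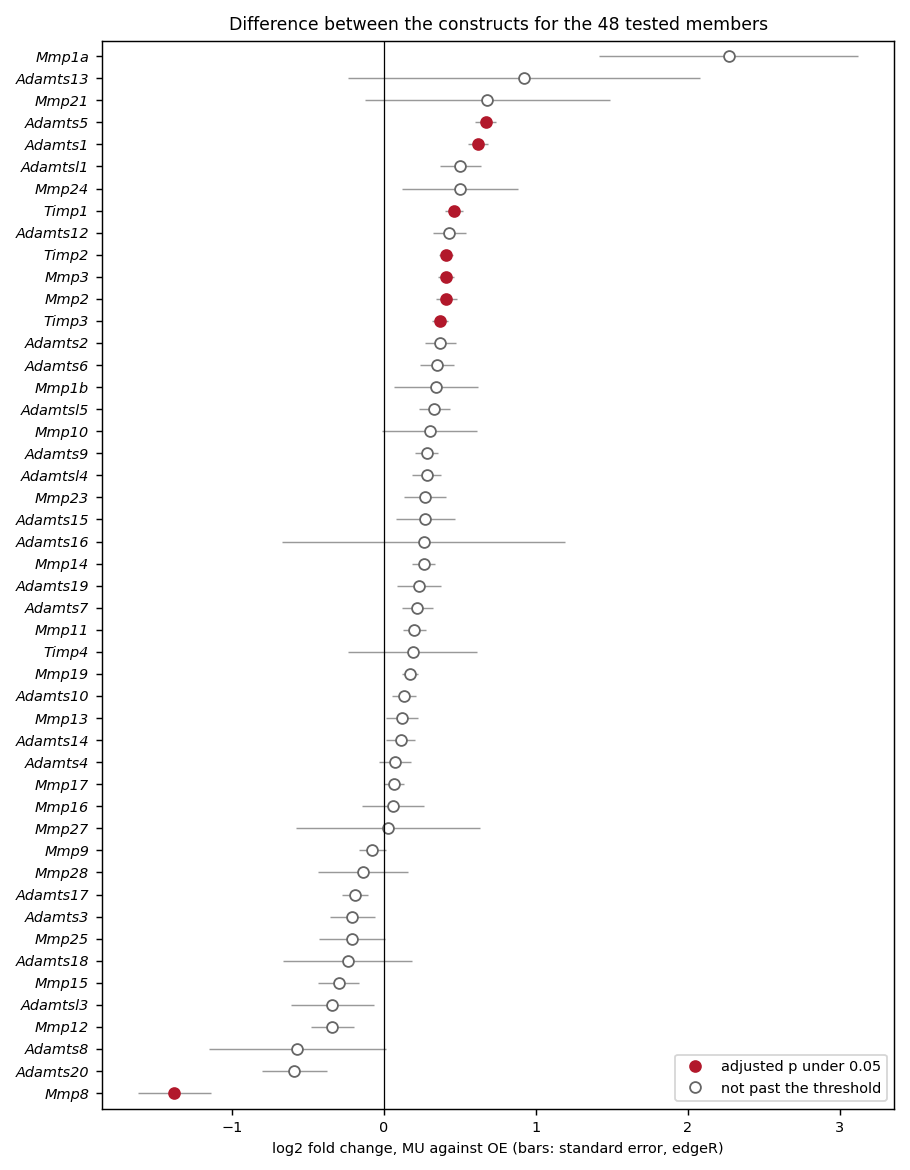
Log2 difference of each tested member between MU and OE, in order of size, with the standard error as a bar. The 8 filled points passed an adjusted p of 0.05, with Adamts5 at 0.67 and Adamts1 at 0.62 to the right of 0 and Mmp8 at -1.38 to the left, while the wide bars belong to members with few counts such as Mmp1a.

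Summed per kb of merged exon, the MMPs reached 501 to 542 CPM per kb in the 4OHT libraries, 127 to 129 in MU and 102 to 107 in OE. The TIMPs summed to 515 to 529 CPM per kb in 4OHT, 153 to 156 in MU and 114 to 115 in OE. The ratio of the TIMP sum to the MMP sum was 0.977 to 1.03 in 4OHT, 1.19 to 1.23 in MU and 1.08 to 1.12 in OE, so the 3 groups did not overlap. The 3 highest genes made up 82.2% to 82.7% of the MMP sum in 4OHT, 72.4% to 72.6% in MU and 68.0% to 68.6% in OE. The ADAMTS proteases summed to 48.2 to 57.2 CPM per kb in 4OHT, 29.3 to 29.8 in MU and 23.2 to 24.4 in OE. These sums describe RNA and were not tested.

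**Figure D5:**
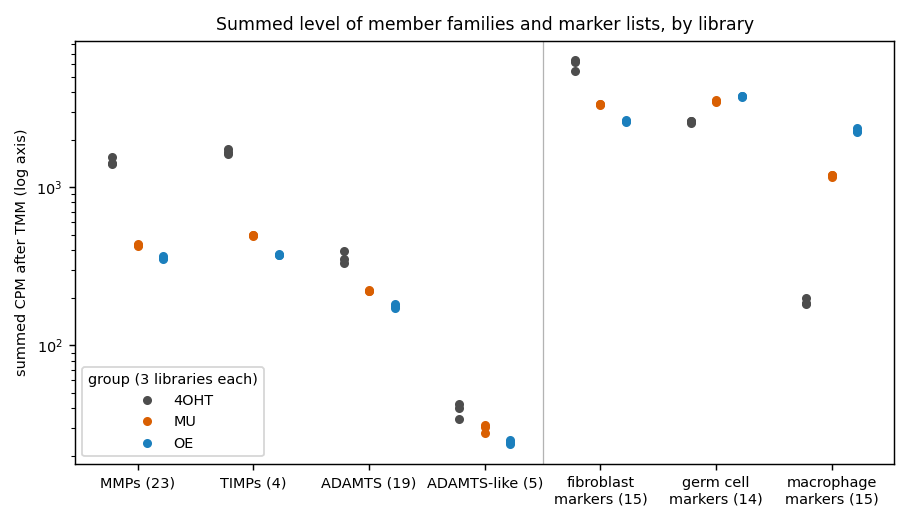
Summed CPM of the member families and of 3 marker lists in each library, on a log axis, with the number of genes in parentheses. MMP, TIMP and ADAMTS sums are ordered 4OHT, MU, OE from high to low as are the fibroblast markers, at 5409 to 6374, 3301 to 3376 and 2596 to 2652 CPM, and the germ cell and macrophage markers are ordered the other way. Most of the macrophage sum is Lyz2.

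Lists of genes that work with the members were described as well. Over all genes tested 29.5% were called higher and 26.5% lower in MU against 4OHT, and 29.9% and 27.9% in OE. Of 31 activators and other regulators of matrix proteases, 8 rose and 20 fell in MU against 4OHT, and 6 rose and 22 fell in OE. The lowest in OE were Tfpi2, a matrix-bound inhibitor of serine proteases, at -3.22 on the log2 scale, Plau, the urokinase that starts plasmin formation, at -2.71, Serpinb2, an inhibitor of urokinase, at -2.39, and Ctsl, a lysosomal protease, at -2.10. Of those that rose in OE, Hpn (1.35), Ctss (1.34) and Spock1 (0.84) had the highest log2 fold changes. Between the constructs 5 of the 31 were higher in MU and 1 was lower, with Ctsk, the protease that osteoclasts use on bone collagen, at 1.06, a gene named after its value was seen. Of all genes tested 2.12% were called higher and 1.06% lower in MU than in OE.

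Among 25 substrates and partners of the ADAMTS and ADAMTS-like proteins, 8 rose and 13 fell in MU against 4OHT, and 7 rose and 14 fell in OE. The shares of all genes called in these comparisons are those given above. Ltbp2, Ltbp4 and Ltbp1, which bind fibrillin or latent TGF-beta, were at -2.45, -2.42 and -2.27 on the log2 scale in OE, and Fbln2, a fibulin of basement membranes, at -2.22. The proteoglycan Acan, a target of Adamts4 and Adamts5, was higher in OE at 0.89, as were Fbn2 (0.96), Sdc4 (0.81) and Vwf (0.79), the substrate of Adamts13. Between the constructs 10 of the 25 were higher in MU, beside 2.12% of all genes, and the other 15 did not pass. The median of the list was 0.20.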

How the data were processed

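Bulk RNA was sequenced as 150-base pairs from 3 libraries in each of the groups 4OHT, MU and OE. The authors deposited 1 table of counts per gene for the 9 libraries. Per the submitters' processing notes, Trimmomatic 0.39, HISAT2 2.2.1 and StringTie 2.2.1 were used with GRCm38; how StringTie output became whole counts and whether strand was used are not given in the sources used here. Values of 4 were in excess, so a read pair was taken as about 4 counts, and 12 counts as the floor of 3 pairs.

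Counts were tested with edgeR 4.0.16 in R 4.3.3 (TMM, filterByExpr by group with a minimum count of 10, 22452 of 53801 genes, quasi-likelihood F test, all 9 libraries, group alone in the model), with Benjamini-Hochberg adjustment over all genes tested and a threshold of 0.05. The standard error (SE) is the size of the log2 fold change divided by the square root of F, and CPM are counts scaled by the TMM effective library size. The fit was tested on simulated data. Exon lengths came from GENCODE annotation of GRCm38 and promoter windows from RefSeq on GRCm38.p6. Alternatives were RLE size factors, no filter, DESeq2 1.42.0, counts divided by 4, only the 6 libraries compared, thinning to 78751996 counts, a replicate block and leaving out each library. Full values are given for members called in MU against OE, for the 6 highest and the 6 lowest called against 4OHT with at least 1 CPM in a group, and for the TIMPs; of other pathway lists at most 4 genes are named per direction. Members and lists were chosen with earlier results of these data known. Separate cultures are not stated for the replicates, so p-values measure only the spread between these samples, which may be technical. The groups MU and OE were read from short labels with the help of the study's methods.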

Additional observations from a re-analysis of the deposited data

How the results depend on the processing

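All 8 members called in MU against OE kept their call and direction in all 16 alternatives, and so did 36 of 38 in each comparison with 4OHT. The exceptions were Adamts3 and Timp4 in MU, and Timp4 and Adamts8 in OE. In MU against OE the count of members called was 14 with only the 6 libraries compared, 12 with DESeq2 and with counts divided by 4, and 8 to 11 when a library was left out. Shares of all genes called under the alternatives are not given here, so these counts of members cannot be set beside them. At 2-fold or more the count was 1 to 2 when a library was left out, and without OE replicate 2, the library that holds the OE reads of Mmp1a, that gene was called as well, at 5.98. Against 4OHT the counts ranged over all alternatives from 36 to 40 in MU and from 36 to 39 in OE. The sign of Mmp10 in MU against OE, which did not pass, turned to -0.0647 without OE replicate 3 (range -0.0647 to 0.55 when a library was left out), and that of Timp4 to -0.0988 without MU replicate 3 and to -0.0677 without OE replicate 3 (range -0.0988 to 0.46). The cause was not tested. The labels share only replicate numbers, and deviations of same-numbered libraries correlated at -0.0884 to 0.0365, so the numbers were not taken as pairs. With the replicate block 9, 40 and 38 members were called in MU against OE, MU against 4OHT and OE against 4OHT, and at 2-fold or more 1, 26 and 29. The block also called Mmp8 in MU against 4OHT (0.61, edgeR adjusted p = 0.0417) and Adamts5 in OE against 4OHT (0.16, edgeR adjusted p = 0.0486). Members under about 1 CPM rest on few read pairs and are limited by depth.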
